A study of Homo sapiens with 3 samples.

Results

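ESR1, PGR, GATA3 and FOXA1 were followed here as the hormone receptors and luminal transcription factors of a breast gene panel, 4 of its 110 endogenous genes. They were taken by gene name. The panel was counted with the NanoString nCounter, in which colour-coded barcode probes hybridised to single RNA molecules are counted without amplification. It was run on 3 subpopulations of MCF10A, an immortalised and non-tumorigenic human mammary epithelial cell line, and the labels name these basal, luminal and stem, with no treatment and 1 library each. How they were separated is not given in the labels, which name an RNA kit for fixed tissue. The study's title places the work in transitions between cell states that Slug, a transcription factor, regulates, and the question here is how the genes of the hormone-responsive luminal lineage differ between these states.

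ESR1 encodes oestrogen receptor alpha and PGR the progesterone receptor, both nuclear receptors that bind DNA when their steroid hormone is present, and PGR is itself a well-known target of oestrogen receptor alpha. FOXA1 is a forkhead pioneer factor that opens chromatin for oestrogen receptor alpha, and GATA3 is a zinc-finger factor that acts with both in luminal mammary cells and maintains luminal differentiation. In the breast these genes mark the hormone-sensing luminal cells, and they are low or absent in basal cells. MCF10A is commonly described as negative for oestrogen receptor.

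The luminal library held 9136 endogenous counts, the basal 8891 and the stem 792367, so detection was judged chiefly in the stem library. The 6 positive controls, for RNA spiked into the lane, summed to 2795, 776 and 69670 counts in the same order. The libraries thus differed in control counts too, which limits every comparison between them, and the cause was not tested. Each library had 8 negative control probes, which have no target in the sample, and their mean plus 2 SD was taken as background. It lay at 1.83 counts in luminal, 1 in basal and 18.9 in stem. The lowest listed value was 1, and a listed 1 is read here as a count of 0 or 1. Since each subpopulation has 1 library, no spread between replicates is known and the subpopulations could not be tested against each other. All intervals are 95% exact intervals for counting error only. Each gene has 1 probe, so transcript length does not enter its count, but probes differ in efficiency, and an order of genes is an order of counts.

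In the stem library 3 of the 4 genes, FOXA1, GATA3 and ESR1, were above background, where 89.5% of the 105 genes other than housekeeping genes were. In luminal 1 of the 4 was above it, where 72.4% of the 105 genes were. In basal it was again 1 of the 4, where 70.5% were. FOXA1 was that gene in both. Above background meant no more than a listing over 1 in luminal and basal, where 7 and 8 of the 8 negative controls were listed at 1. FOXA1 made up 298 of the 370 counts of the 4 genes in stem, or 80.5% (76.1% to 84.5%, Clopper-Pearson). The 4 genes together held 0.0467% of the endogenous counts of the stem library.

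**Figure D1:**
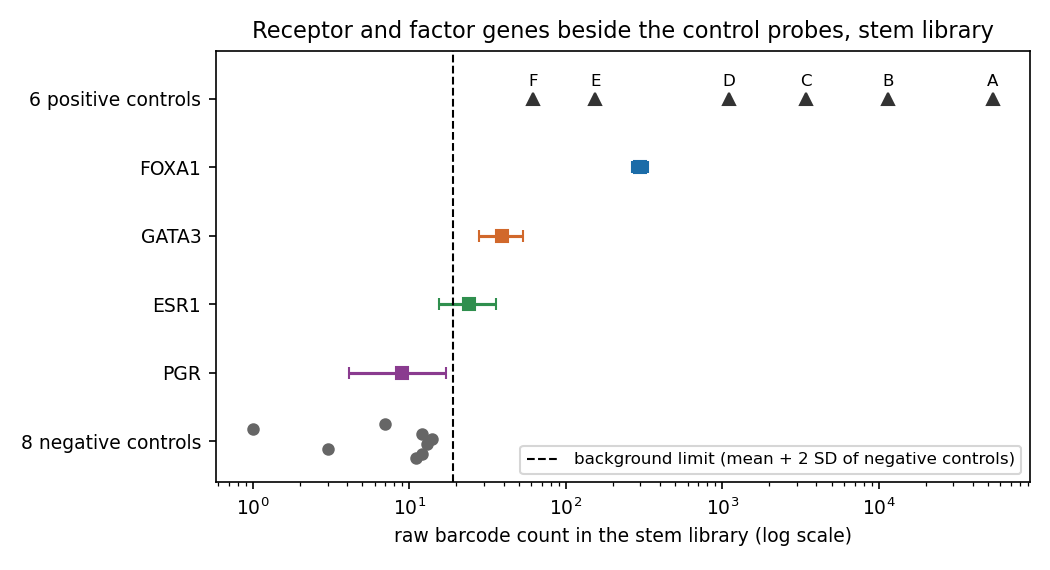
Raw counts in the stem library on a log axis for the 4 genes (squares, bars are 95% exact Poisson intervals), the 8 negative controls (circles) and the 6 positive controls A to F (triangles); the dashed line is the background limit of 18.9 counts. FOXA1 lies between positive controls E and D, GATA3 and ESR1 lie below control F, and PGR lies within the range of the negative controls.

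ESR1 (NM_000125.2) had 1 listed count in luminal, 1 in basal and 24 in stem. The stem count was 1.27 times the background limit, and its Poisson interval of 15.4 to 35.7 counts reached below that limit. All 8 negative controls of the stem library, which ran from 1 to 14 counts, were lower than ESR1. Less the mean of the negative controls, 9.13 counts, ESR1 kept 14.9 counts. The oestrogen receptor transcript was thus listed above every blank probe, by a margin that counting error alone could close against the limit used. At a limit of mean plus 3 SD it stood 1.01 times above.

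PGR (NM_000926.4) had 1 listed count in luminal, 1 in basal and 9 in stem. The stem count was 0.986 times the mean of the negative controls, and 5 of the 8 negative controls were higher. Its interval of 4.12 to 17.1 counts ended below the limit of 18.9. The progesterone receptor was therefore not detected at this depth in any of the 3 libraries. The upper bound in stem equalled a normalised count of 0.133, where a normalised count is the raw count per 100 of the housekeeping mean, which is the geometric mean over 5 housekeeping genes in that library.

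FOXA1 (NM_004496.2) had 5 counts in luminal, 3 in basal and 298 in stem. In stem it was 15.8 times the background limit, with an interval of 265 to 334 counts. In luminal and basal its count was 2.73 and 3 times the limit, but the intervals, 1.62 to 11.7 and 0.619 to 8.77 counts, reached below the limit in both. All 8 negative controls were lower than FOXA1 in each library. FOXA1 was the only one of the 4 genes counted above background outside the stem library, and its presence is firm in stem alone.

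GATA3 (NM_001002295.1) had 1 listed count in luminal, 1 in basal and 39 in stem. Its stem count was 2.06 times the background limit, and its interval of 27.7 to 53.3 counts lay wholly above it. Less the mean of the negative controls it kept 29.9 counts. GATA3 was thus the second of the 4 genes whose stem interval cleared the limit, at a low count.

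The positive controls, RNA spiked in steps of falling concentration from A to F, give a ruler within the lane. In stem, FOXA1 lay between control E at 154 counts and control D at 1102. GATA3 and ESR1 lay below control F, the weakest spike, at 62 counts. In luminal and basal, where FOXA1 had 5 and 3 counts, control E had 8 and 4 and control F was listed at 1. FOXA1 therefore stood above control E in stem. In the other 2 libraries control E lay within the interval of FOXA1, 1.62 to 11.7 counts in luminal and 0.619 to 8.77 in basal. The place of FOXA1 beside control E is thus not settled there. GATA3 and ESR1 in stem were under the lowest step of the ruler.

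By count in stem the order was FOXA1, GATA3, ESR1 and PGR. The count of FOXA1 was 7.64 times that of GATA3 (5.46 to 11.0). GATA3 was 1.63 times ESR1, with an interval of 0.953 to 2.82 that included 1, so these neighbours do not differ beyond counting error. ESR1 was 2.67 times PGR (1.20 to 6.52). Part of each low count is background, so these ratios of raw counts are not ratios of transcripts.

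Among the 105 genes the 4 took low places in stem. FOXA1 was 72nd from the top, GATA3 90th, ESR1 92nd and PGR 102nd. The gene next above FOXA1 was CLDN7, a tight junction claudin, with 318 counts, and the gene next below was PVRL3, a nectin adhesion molecule, with 263. GATA3 stood between MLPH, which encodes the vesicle transport adaptor melanophilin, with 46 counts, and KRT19, a luminal keratin, with 32. KRT19 was also next above ESR1, and EVI2A and the growth factor receptor gene FGFR4, with 20 counts each, were next below. PGR stood between GAL, the neuropeptide galanin, with 10 counts, and RAB25, a small GTPase of epithelial vesicle traffic, with 5. The ratio of each of these genes to the one it neighbours had an interval that included 1.

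**Figure D2:**
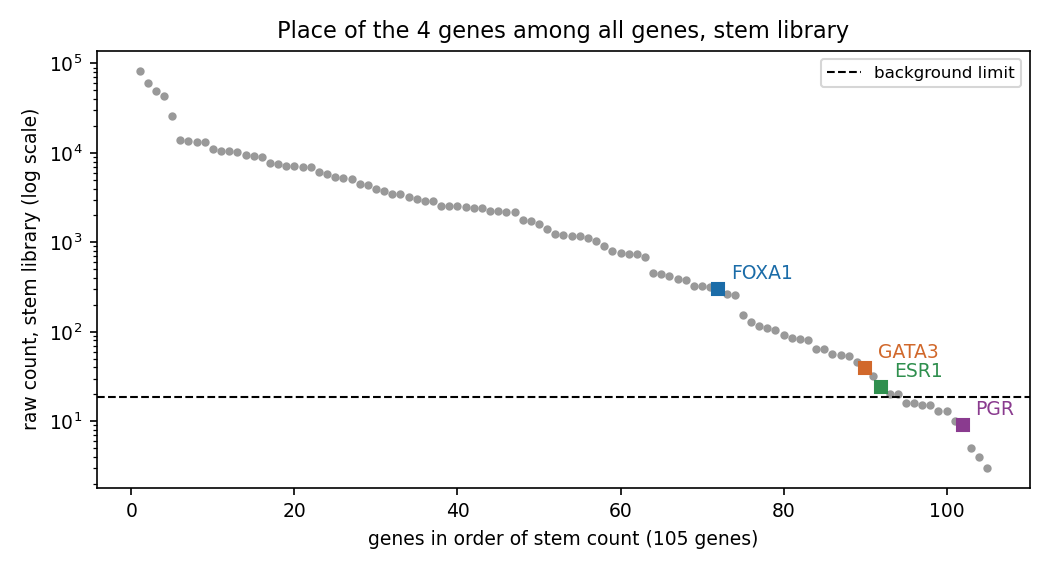
Raw count in the stem library (log axis) of the 105 genes in order of count, with FOXA1, GATA3, ESR1 and PGR as coloured squares and the background limit of 18.9 counts as a dashed line. FOXA1 is 72nd, GATA3 and ESR1 lie just above the limit and PGR lies below it.

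ESR1 lay at the edge of the detected range. The detected genes nearest to the limit were EVI2A and FGFR4 at 20 counts and ESR1 at 24. Just under it were ERBB4, a receptor of the EGFR family, and MAPT, which encodes tau, with 16 counts each. CLDN3 and CLDN4 had 15 counts each, and 11 genes in all, PGR among them, were not above the limit.

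FOXA1 could be compared between subpopulations. Its normalised count was 3.62 in luminal (1.18 to 8.46), 2.53 in basal (0.523 to 7.41) and 2.32 in stem (2.06 to 2.60). The 3 intervals overlapped, and luminal, basal and stem are neighbours in that order with no separation beyond counting error. Against luminal, the log2 ratio of normalised counts was -0.52 in basal (-3.20 to 1.85) and -0.64 in stem (-1.88 to 0.99). Against basal it was -0.13 in stem (-1.69 to 2.16). All 3 intervals included 0 and were wide, so neither a difference of 2-fold nor equality is shown. With the geometric mean of the 6 positive controls as the scale, the 3 log2 ratios turned to 0.68, 1.01 and 0.34, again with intervals that included 0. The positive controls do not track RNA input, and which scale is right is not known here.

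A rule of size was run over all genes above background in at least 1 library of a pair: at least 2-fold on the housekeeping scale with an interval that excluded 1. FOXA1 did not pass it in any of the 3 comparisons. Of the genes assessed, the rule called 2.53% for basal against luminal, 4.26% for stem against luminal and 3.19% for stem against basal. On the positive control scale many more genes passed, 43 of 79, 70 of 94 and 11 of 94 in the same order, and FOXA1 was again not among them. GATA3 and ESR1 entered the rule through their stem count only, PGR did not enter it, and no ratio is given for these 3.

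**Figure D3:**
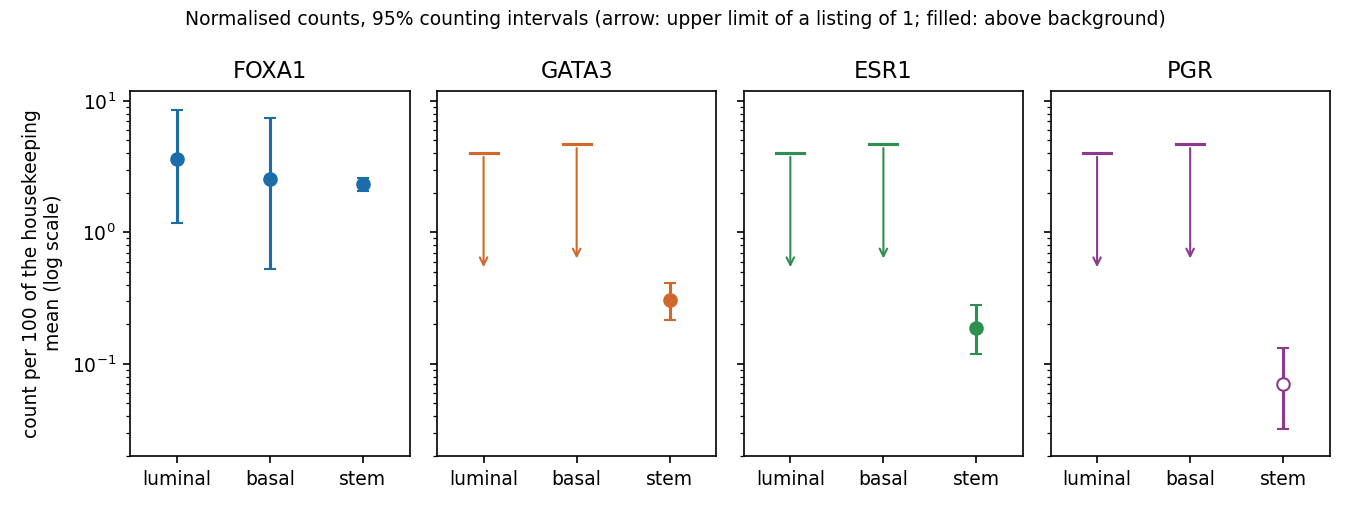
Normalised counts (raw count per 100 of the housekeeping mean, log axis) of FOXA1, GATA3, ESR1 and PGR in the luminal, basal and stem libraries, with 95% counting intervals; filled points are above background, and an arrow marks the upper limit of a gene listed at 1. FOXA1 intervals overlap in all 3 libraries, and the upper limits of the other 3 genes in luminal and basal lie above their stem values.

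The listings of 1 for GATA3, ESR1 and PGR in luminal and basal were set against the counts that their stem levels would give at the depth of those libraries. The housekeeping mean of stem was 93.1 times that of luminal and 109 times that of basal. At the stem level, GATA3 would have 0.419 counts in luminal and 0.359 in basal. ESR1 would have 0.258 and 0.221, and PGR, from a stem count at background, 0.0967 and 0.0829. FOXA1 would have 3.20 counts in luminal, where 5 were listed, and 2.75 in basal, where 3 were. On this scale the 3 genes listed at 1 were thus expected below 1 count in both libraries, and FOXA1 above 1. On the positive control scale GATA3 was expected above 1 in luminal, at 1.32 counts, and FOXA1 at 10.1 there, where 5 were listed.

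Genes expected at such low counts were mostly listed at 1. On the housekeeping scale, of the 26 genes expected below 1 count in luminal, 24 were listed at 1, and the exceptions were FBN1 and ZEB1. Of the 27 such genes in basal, 24 were listed at 1, and the exceptions were BCL2, NAT1 and ZEB1, all with 3 counts or fewer. The 24 genes listed at 1 include GATA3, ESR1 and PGR themselves in both libraries.

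**Figure D4:**
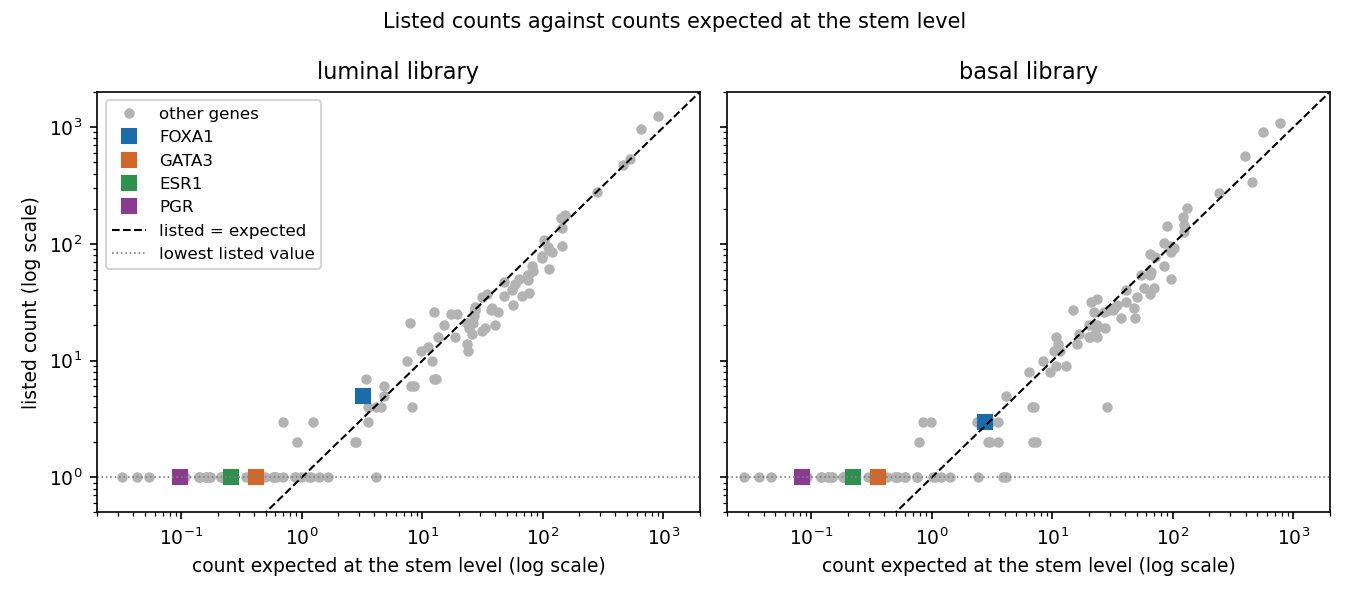
Listed count (log axis) against the count expected from the stem level on the housekeeping scale (log axis) for 105 genes in the luminal and basal libraries; coloured squares are the 4 genes, the dashed line marks equality and the dotted line the lowest listed value of 1. FOXA1 lies near the dashed line with 5 and 3 counts, whereas GATA3, ESR1 and PGR lie on the dotted line at expected counts below 1.

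A listing of 1 still allows a level well above that of stem. The exact upper limit for 1 count is 5.57 counts, a normalised count of 4.04 in luminal and 4.71 in basal. For GATA3 this upper limit was 13.3 times the stem level in luminal and 15.5 times in basal. For ESR1 it was 21.6 and 25.2 times. On the housekeeping scale, luminal or basal levels of GATA3 and ESR1 up to these multiples of the stem level are thus not excluded by a listed 1. The multiples are smaller on the positive control scale, where more counts were expected at the stem level. There GATA3 was expected at 1.32 counts in luminal and 0.496 in basal, and ESR1 at 0.814 and 0.305. With a listed 1 on both sides, luminal and basal could not be compared for GATA3 and ESR1.

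The log2 values in the authors' deposited table carry these listings as numbers. In the authors' deposited table ESR1 stood at -7.11 in luminal, -6.89 in basal and -9.06 in stem. PGR stood at -7.11, -6.89 and -10.5 in the authors' deposited table, and GATA3 at -7.11, -6.89 and -8.36. These log2 values equal the logarithm of the raw count over the housekeeping mean, with no background step, so every gene listed at 1 has one value per library, 29 genes in luminal and 31 in basal. Stem minus luminal in the authors' deposited table was -1.96 for ESR1, -3.37 for PGR and -1.26 for GATA3. Of the 29 genes listed at 1 in luminal, 24 had a lower deposited value in stem, and of the 31 in basal also 24 did. On the deposited scale a gene listed at 1 in luminal comes out lower in stem whenever its stem count is under 93.1. For basal that count is 109. The stem counts of ESR1, PGR and GATA3, at 24, 9 and 39, are all under both.

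Genes tied to oestrogen receptor activity or to the luminal class of breast tumours were set beside the 4. Of 23 such genes listed, 9 were on the panel, and 8 of these were above background in stem, 5 in luminal and 7 in basal. These are 88.9%, 55.6% and 77.8%, where 89.5%, 72.4% and 70.5% of the 105 genes were. Basal exceeded luminal through BCL2 and NAT1, each with 3 counts in basal and a listed 1 in luminal. Their stem counts ran from 16 for MAPT to 2519 for BLVRA, a biliverdin reductase. SLC39A6, a zinc transporter known as an oestrogen-induced gene in breast cancer cells, had 1253 counts in stem, 16 in luminal and 12 in basal. CXXC5, a zinc-finger protein, had 327, 4 and 3, close to FOXA1 in each library. BCL2, an inhibitor of cell death and a known oestrogen-responsive gene, had 91 in stem, 1 in luminal and 3 in basal. Several genes of the luminal tumour class were therefore counted well above ESR1 in the same stem library.

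In this list 0 of 7 genes passed the 2-fold rule for basal over luminal and 0 of 8 for stem over luminal on the housekeeping scale. On the positive control scale it was still 0 of 7 for basal over luminal, where 43 of 79 genes in all passed. On that scale 5 of 8 were higher in stem than in luminal (BAG1, BLVRA, CXXC5, GPR160 and SLC39A6), where 70 of 94 genes in all were. For stem over basal 1 of 8 passed, the G protein-coupled receptor gene GPR160, whose 793 stem counts stood against 2 in basal (log2 ratio 1.87, 0.012 to 4.92). That call was lost without PSMC4 in the scale, where the lower bound was -0.077, and without RPLP0, where it was -0.20. Taking list members detected in both libraries of a pair, the median log2 ratio was -0.19 for basal over luminal (5 genes, against 0.15 over 71 genes in all). It was -0.10 for stem over luminal (5 genes, against 0.24 over 76) and 0.0064 for stem over basal (7 genes, against 0.15 over 74). These medians rest on few genes.

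A list of luminal epithelial genes, keratins and claudins among them, ranged more widely in count than the 4 genes. Of 8 on the panel, 6 were above background in stem, or 75%, where 89.5% of the 105 genes were. In luminal 5 of the 8 were, or 62.5% against 72.4%, and in basal 4 of the 8, or 50% against 70.5%. The stem counts of the 8 ran from CLDN3 and CLDN4 at 15 to KRT8, a keratin of simple epithelium, at 83241. KRT8 had 1239 counts in luminal and 1076 in basal, while KRT19 was listed at 1 in both. CD24, a surface glycoprotein used in sorting, was lower by the rule in basal than in luminal (log2 ratio -2.17, -4.17 to -0.60) and in stem than in luminal (-1.41, -2.03 to -0.70). Whether these subpopulations were themselves separated by CD24 is not given in the labels. ESRP1, an epithelial splicing regulator, was lower in basal than in luminal (-2.03, -4.04 to -0.44) and higher in stem than in basal (2.81, 1.46 to 4.69). On the positive control scale CD24 turned to 0.25 for stem against luminal, and for basal against luminal CD24 and ESRP1 came to -0.98 and -0.83, both with intervals that included 0. ESRP1 came to 2.45 (1.80 to 3.18) for stem against luminal on that scale, past the rule, from 0.79 (0.14 to 1.52) on the housekeeping scale. For stem against luminal, 70 of 94 genes in all passed on the positive control scale.

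Of the 9 basal lineage genes on the panel, 8 were above background in stem and 7 each in luminal and basal, shares near or slightly above those of all 105 genes. MIA, at 13 counts in stem and a listed 1 elsewhere, was not above background in any library. KRT5, a basal keratin, had 972 counts in luminal, 917 in basal and 61068 in stem. FOXC1, a forkhead factor of basal-like breast tumours, stood at 111 counts in stem and at a listed 1 in luminal and in basal. FOXA1 had 298 counts in stem, so both forkhead genes were counted there. With FOXA1 at 5 counts in luminal and 3 in basal, a difference between these libraries could be neither shown nor excluded. GATA3, ESR1 and PGR were listed at 1 in both, so they could not tell luminal from basal.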

How the data were processed

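RNA of 3 MCF10A subpopulations was counted with the NanoString nCounter, 1 library each, after the manufacturer's protocol per the labels' protocols. The deposited raw counts are barcode counts per probe with no normalization, per the file headers. The authors deposited a second table of log2 values for 105 genes, which equalled log2 of the raw count over the geometric mean of the housekeeping set (SF3A1, RPLP0, PSMC4, MRPL19 and ACTB), to within 3.53e-09. Its rows for the 4 genes were found by value within 1e-06. Other upstream steps are not given in the sources used here.

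Raw counts were analysed with Python 3.11.15, NumPy 2.4.6, SciPy 1.17.1 and pandas 2.3.3. Counts had exact Poisson intervals, and ratios had Clopper-Pearson intervals conditional on the sum of the counts, which take the scale as exact. The ratio script was tested on simulated data. A count expected in luminal or basal is the stem count times the ratio of the housekeeping means. Alternatives changed the background limit, the scale, the filter and the fold limit. The 4 genes and all gene lists were chosen with earlier results of these data known. Named genes were the 4, their nearest neighbours by stem count, list members past the 2-fold rule, list extremes in stem, KRT5, KRT8 and CD24; SLC39A6, CXXC5, BCL2, KRT19, FOXC1, the genes around the limit and the exceptions at expected counts below 1 were named after their values were seen. Of marker lists for immune cells, adipocytes, fibroblasts and endothelial cells, 0 genes were on the panel. Accessions of the 4 probes matched RefSeq symbols of GRCh38.p14. Probe sequences were not used here.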

Additional observations from a re-analysis of the deposited data

How the results depend on the processing

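With 1 library per subpopulation, no replicate could be left out. No paired analysis was possible because each subpopulation has 1 library. The numbers of the 4 genes above background, 3 in stem, 1 in luminal and 1 in basal, did not change under mean plus 3 SD, under the highest or the mean negative control as the limit, or with any negative control left out. In basal this could not be otherwise, because all 8 negative controls were listed at 1 and each of these limits was 1. In luminal and basal a gene listed at 1 could not pass any of them. ESR1 stood closest to the limit: its ratio ran from 1.21 to 1.33 with 1 negative control left out. The scale of the 6 positive controls moved the counts expected at the stem level to 10.1 in luminal and 3.79 in basal for FOXA1, to 1.32 and 0.496 for GATA3, to 0.814 in luminal for ESR1 and to 0.305 in luminal for PGR. FOXA1 in basal was 3.34 by total count. With 1 housekeeping gene left out, FOXA1 was expected at 2.37 to 3.08 in basal and 2.96 to 3.49 in luminal. Subtracting the mean of the negative controls in stem gave 0.160 in luminal and 0.137 in basal for ESR1, and 0 in both for PGR. The log2 ratio of FOXA1 for stem over luminal was 1.01 on the positive control scale, chosen after seeing the data like its other alternatives. Of 8 alternatives each, 1 turned the sign of FOXA1 for basal against luminal, 1 for stem against luminal and 4 for stem against basal, where it ran from -0.34 to 0.038 with 1 housekeeping gene left out. On the positive control scale 43 genes passed the 2-fold rule for basal against luminal, 70 for stem against luminal and 11 for stem against basal. With 1 housekeeping gene left out, in the same order, they numbered 2 to 3, 2 to 7 and 1 to 5. By total count 8 passed for stem over basal, and at 3-fold 0 passed for stem over luminal. The cause of these shifts was not tested.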
